A study of Mus musculus with 6 samples.

Results

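The genes of the respiratory chain were followed across the 6 libraries: 107 members, 97 nuclear genes and 10 identifiers on the mitochondrial chromosome (chrM), of 24847 genes in all. Nuclear members were protein-coding genes whose symbols start with Ndufa, Ndufb, Ndufc, Ndufs, Ndufv, Sdha to Sdhd, Uqcr, Cox4 to Cox8, Atp5 or Cyc1, so 11 assembly factors (Ndufaf and Sdhaf genes) came in with the subunits. Every identifier on chrM was taken. Ndufaf5 and a second annotated Atp5o entry had no identifier in the files and are not counted among the 107.

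RNA came from kidney collecting duct cells of C57BL/6J males (an inbred mouse strain, with no transgene in the labels). One group of 3 libraries was from mice given a low-NaCl diet (0.01 to 0.02% sodium) and the other group of 3 from mice given a high-NaCl diet (2.4% sodium), both for 5 days. Each diet is measured only against the other. The labels do not say whether a library is 1 animal or a pool, and p-values cover only library-to-library spread, part of which can be technical.

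The respiratory chain sits in the inner mitochondrial membrane. Complex I (NADH dehydrogenase) and complex II (succinate dehydrogenase) pass electrons to coenzyme Q, complex III hands them to cytochrome c, complex IV (cytochrome c oxidase) passes them to oxygen, and complex V uses the proton gradient to make ATP. Most subunits are encoded in the nucleus, while the mitochondrial DNA holds a few core subunits of complexes I, III, IV and V and the ribosomal RNAs that help translate them. In the collecting duct, the ATP feeds the sodium pump of principal cells and the proton pump of intercalated cells, which are rich in mitochondria.

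Libraries held 40334731 to 41701319 counts on the low-NaCl diet and 40101899 to 46861531 on the high-NaCl diet. High-NaCl replicate 2 stood apart from High-NaCl replicates 1 and 3 on chrM: for 9 of the 10 chrM identifiers it lay at or below the highest low-NaCl library. Cell markers moved with diet. Summed principal cell markers were 3122 to 4761 CPM (counts-per-million, scaled between libraries with TMM factors) in low-NaCl libraries and 8771 to 10926 CPM in high-NaCl libraries, with 3 of 7 tested markers lower, 0 higher and Gata3 at 0 with only 0.0933% of its bases countable, so that almost none could receive counts. Summed intercalated cell markers were 5502 to 9499 CPM in low-NaCl libraries against 4497 to 5251 CPM in high-NaCl libraries. Of 10 tested markers, 5 were higher and 0 lower. Over all genes tested, 1.70% were higher and 1.69% lower at an edgeR adjusted p below 0.05. Rhcg, the highest gene of the intercalated list, lay the other way with overlap (log2 fold change -0.13, edgeR adjusted p = 0.804). Car2 also overlapped between diets. Proximal tubule markers summed to 1777 to 3518 CPM in low-NaCl libraries against 996 to 2226 CPM in high-NaCl libraries (1 of 9 tested higher). Most of that sum was Aqp1, which was not called, at 1706 to 3447 CPM in low-NaCl libraries and 939 to 2169 CPM in high-NaCl libraries, while Kap averaged 9.41 CPM in low-NaCl and 18.1 CPM in high-NaCl libraries. Thick limb markers summed to 438 to 543 CPM in low-NaCl libraries against 290 to 347 CPM in high-NaCl libraries (1 of 4 tested higher). Distal convoluted and connecting tubule markers summed to 28716 to 31834 CPM in low-NaCl libraries against 30097 to 38891 CPM in high-NaCl libraries, with 2 of 4 tested lower; most of that sum was Klk1, which was not called (28324 to 31335 CPM in low-NaCl and 28869 to 37951 CPM in high-NaCl libraries). Markers of endothelial, immune, stromal, podocyte and blood cells summed to 7.10 to 19.2 CPM in low-NaCl libraries and 9.01 to 23.1 CPM in high-NaCl libraries, with 0 of 8 tested called (0 by DESeq2 and 0 at an unadjusted p below 0.05); Pecam1, Emcn, Ptprc, Cd68 and Pdgfrb were at 0, and all of these but Emcn were at most 19.2% countable. Slc22a8 of the proximal tubule list and Cldn10 of the thick limb list were at 0 too, with 0.883 and 0% of their bases countable. The part of these shifts in the values below was not tested, and fewer cells of a type cannot be told apart from less RNA per cell.

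What an identifier can count sets what is known of the mitochondrial transcripts. Reads that overlap more than 1 identifier were not counted, so each chrM identifier is described by the gene under its countable bases, those that no other identifier covers. Of the protein-coding genes, mt-Nd1, mt-Nd2, mt-Co1, mt-Co2, mt-Atp8, mt-Atp6, mt-Nd4l, mt-Nd4 and mt-Cytb had at least 97.5% of their bases countable, and mt-Nd5 had 36.4%. Cytochrome oxidase subunit mt-Co3 had 1 countable base, mt-Nd3 and mt-Nd6 had 0, and none of these 3 can be measured here. The large ribosomal RNA, mt-Rnr2, had only 55 countable bases, covered by an identifier annotated on the minus strand. A minus-strand identifier also stands for mt-Nd5, whose gene is on the plus strand, since the counting did not use strand.

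A second limit is a copy of mitochondrial DNA in the nuclear genome. A run of annotated pseudogenes on chromosome 1 (mm10, minus strand) matches the mitochondrial genes from mt-Co1 to mt-Nd4. The copies of mt-Co2 (681 bases), mt-Atp6 (678), mt-Co3 (783), mt-Nd4l (294) and the first 876 bases of mt-Nd4 had 0 mismatches, that of mt-Nd3 had 1 in 345 bases, and that of mt-Co1 had 6 in 492 bases. The first 100 bases of mt-Atp6 (chrM:7927-8026, plus strand) and of its copy Gm10925 (chr1:24614552-24614651, minus strand), from GENCODE M21 transcripts, are shown because no read that lies within them can tell the loci apart.

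mt-Atp6: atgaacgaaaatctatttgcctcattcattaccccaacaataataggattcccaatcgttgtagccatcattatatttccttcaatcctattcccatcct

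Gm10925: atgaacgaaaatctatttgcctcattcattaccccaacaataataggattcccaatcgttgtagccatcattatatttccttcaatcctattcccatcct

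For mt-Co1 (chrM:6381-6480, plus strand), the first 100 bases of the part that the copy Gm29216 holds (chr1:24616098-24616197, minus strand) carry all 6 mismatches, shown as capitals in both sequences. The rest of that copy is identical to the mitochondrial gene.

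mt-Co1: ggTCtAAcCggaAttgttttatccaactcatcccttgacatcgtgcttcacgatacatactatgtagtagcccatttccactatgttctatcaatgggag

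Gm29216: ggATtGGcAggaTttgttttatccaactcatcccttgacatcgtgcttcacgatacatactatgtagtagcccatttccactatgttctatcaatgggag

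Counted in 50-base windows, 100% of mt-Co2, 99.5% of mt-Atp6, 62.2% of mt-Nd4 and 51.1% of mt-Co1 also occur in another annotated gene, against 8.19% of mt-Nd2, 7.61% of mt-Nd5, and 0% of mt-Nd1, mt-Cytb and mt-Rnr1. The one identifier on the copy, a counterpart of the mt-Atp8 and mt-Atp6 identifier with the same 842 bases, held 27368, 17902 and 23342 counts in low-NaCl libraries and 57796, 22836 and 49479 in high-NaCl libraries. The chrM identifier held 27142, 20144 and 22810 counts on the low-NaCl diet and 58076, 22509 and 50818 on the high-NaCl diet. The copy thus held 0.889 to 1.02 times the chrM count in every library, and the pair moved together. Counts of mt-Co2 and mt-Atp6 are therefore uncertain as to which locus the reads came from. Whether mt-Co1 and mt-Nd4 lack reads from the shared stretches was not tested.

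**Figure D1:**
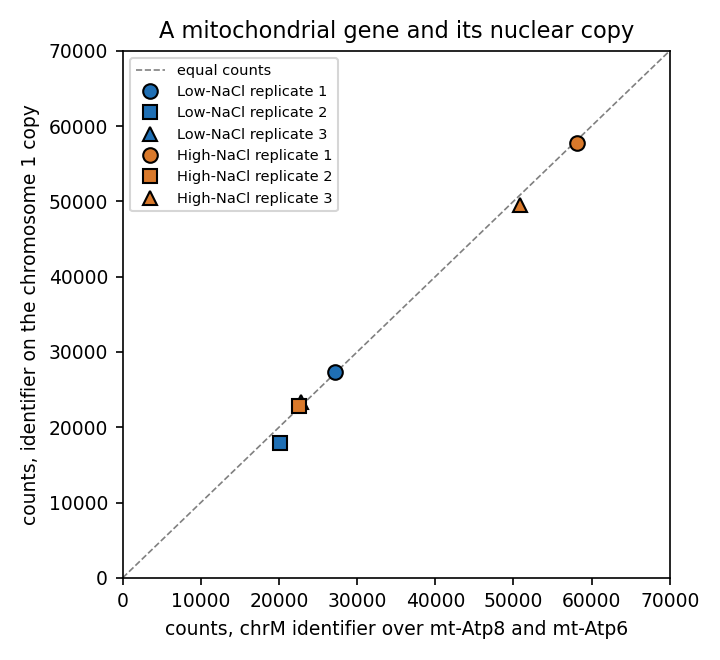
Counts of the identifier on the chromosome 1 copy (vertical axis) against counts of the chrM identifier over mt-Atp8 and mt-Atp6 (horizontal axis), 1 point per library; the dashed line marks equal counts. All 6 libraries lie near the line, with ratios of 0.889 to 1.02, and High-NaCl replicates 1 and 3 lie far above the other 4 libraries.

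Counts on chrM made up 21.8, 20.5 and 21.0% of all counts in low-NaCl libraries and 29.9, 21.9 and 28.7% in high-NaCl libraries. The means were 21.1 ± 0.665% on the low-NaCl diet and 26.8 ± 4.33% on the high-NaCl diet (SD, n = 3 each). The diets did not overlap, but Low-NaCl replicate 1 and High-NaCl replicate 2 lay almost together. On the TMM-scaled values the diets overlapped: 225565, 187901 and 199609 CPM in low-NaCl libraries, 345161, 196018 and 305707 CPM in high-NaCl libraries. No p is given for this sum.

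Summed nuclear members took 8.46, 6.94 and 7.18% of all counts in low-NaCl libraries and 6.98, 6.69 and 7.17% in high-NaCl libraries. The diets overlapped here, and they were closer still as a share of the counts outside chrM, at 9.54 ± 1.12% on the low-NaCl diet and 9.52 ± 0.833% on the high-NaCl diet (SD, n = 3 each). On the TMM scale the sums were 87692, 63728 and 68354 CPM in low-NaCl libraries and 80572, 59970 and 76434 CPM in high-NaCl libraries. Replicate 1 was the highest and replicate 2 the lowest library on each diet, so the spread within a diet exceeded the difference between their means.

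The ratio of chrM to nuclear respiratory chain counts, which does not depend on the scaling between libraries, was 2.57, 2.95 and 2.92 in low-NaCl libraries and 4.28, 3.27 and 4.0 in high-NaCl libraries. Means were 2.81 ± 0.210 on the low-NaCl diet and 3.85 ± 0.524 on the high-NaCl diet (SD, n = 3 each), and the diets did not overlap. Within the one sequencing lane that held both diets, the ratio was 2.57 in Low-NaCl replicate 1 and 4.28 in High-NaCl replicate 1. The other lanes held 1 diet each, so there lane and diet cannot be told apart. Without mt-Co1, whose identifier alone held 38.4 to 52.8% of chrM counts, the diets overlapped in both the ratio and the chrM share, but the mean log2 difference was no smaller: -0.50 for the ratio, against -0.45 with mt-Co1, and -0.39 for the share, against -0.33 with it.

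**Figure D2:**
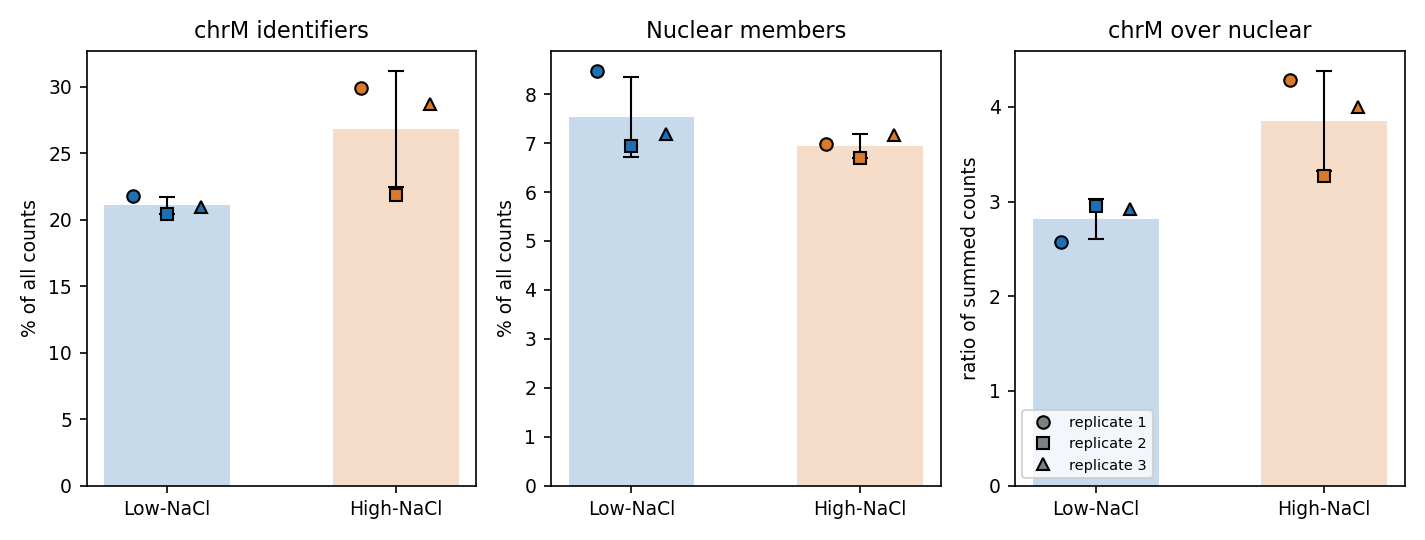
Share of all counts (%) on chrM and in the nuclear members, and the ratio of their summed counts, for low-NaCl (left, blue) and high-NaCl (right, orange) libraries; bars are means, whiskers SD, and symbols single libraries, n = 3 per diet. The chrM share spans 20.5 to 21.8% in low-NaCl and 21.9 to 29.9% in high-NaCl libraries, and the ratio 2.57 to 2.95 in low-NaCl and 3.27 to 4.28 in high-NaCl libraries, with High-NaCl replicate 2 nearest to the low-NaCl libraries.

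All 91 members that passed the filter on low counts were tested with edgeR's quasi-likelihood test over 10523 genes. Of the 91, 0 were called at an adjusted p below 0.05, against 3.39% of all genes tested in either direction (1.70% higher, 1.69% lower). At an unadjusted p below 0.05 there were 6 members, 4 on chrM and 2 in the nucleus, against 18.3% of all genes. DESeq2 called 1 member, mt-Atp6 (adjusted p = 0.0491), where it called 3.83% of all genes lower. The 16 untested members were all nuclear. Of these, 5 had 0 counts in every library (Ndufaf2, Ndufb2, Ndufs8, Cox6a2 and Cox6b2); all but Cox6a2 had under 4% of their bases countable, so a count of 0 says little about them.

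On chrM, all 10 identifiers had lower fitted values in low-NaCl libraries, with log2 fold changes of -1.01 to -0.32 (median -0.47), against a median of 0.00 over all genes tested, 50.2% of which lay below 0. The same 10 lay below 0 under every scaling tried (medians -0.50 to -0.36). None passed the adjusted threshold. These transcripts are cut from shared precursors, so they are not 10 separate observations.

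mt-Atp6, a complex V subunit of the proton channel, counted here together with mt-Atp8, had 674, 459 and 538 CPM in low-NaCl libraries and 1596, 431 and 1351 CPM in high-NaCl libraries. High-NaCl replicate 2 fell below all 3 low-NaCl libraries, while High-NaCl replicates 1 and 3 were the highest of the 6. The log2 fold change was -1.01 ± 0.39 (SE; edgeR adjusted p = 0.208). Without High-NaCl replicate 2 it was -1.40 (adjusted p = 0.00651), and without High-NaCl replicate 1 it was -0.68 (adjusted p = 0.549).

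mt-Nd1, a membrane subunit of complex I that has no copy on chromosome 1, had 29724, 23125 and 26375 CPM in low-NaCl libraries and 60491, 23945 and 53420 CPM in high-NaCl libraries. Again High-NaCl replicates 1 and 3 were the highest 2 of the 6 libraries, and replicate 2 lay inside the low-NaCl range. The log2 fold change was -0.80 ± 0.32 (SE; edgeR adjusted p = 0.226), -1.11 without High-NaCl replicate 2 (adjusted p = 0.0191) and -0.55 without High-NaCl replicate 1 (adjusted p = 0.491). For mt-Co2, a core subunit of complex IV, values were 462, 363 and 414 CPM in low-NaCl libraries against 782, 403 and 713 CPM in high-NaCl libraries, with a log2 difference of -0.61 ± 0.24 (SE; edgeR adjusted p = 0.206), and -0.86 without High-NaCl replicate 2 (adjusted p = 0.0182) against -0.43 without High-NaCl replicate 1 (adjusted p = 0.436). With High-NaCl replicate 2 left out, these 3 of 10 chrM identifiers were called lower, against 2.34% of all genes called lower.

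mt-Co1, the catalytic core of complex IV, was the single chrM identifier whose diets did not overlap, with 98101, 95264 and 88543 CPM in low-NaCl libraries and 132605, 103590 and 122445 CPM in high-NaCl libraries. Of all genes tested, 11.6% were lower without overlap. Its log2 fold change was -0.35 ± 0.21 (SE; edgeR adjusted p = 0.437). mt-Cytb, the mitochondrial subunit of complex III, had 47027, 33099 and 40784 CPM in low-NaCl libraries against 74111, 32116 and 63794 CPM in high-NaCl libraries (log2 fold change -0.49, adjusted p = 0.449). The other complex I subunits overlapped between diets too, with log2 fold changes of -0.49 for mt-Nd2, -0.46 for mt-Nd5 and -0.42 for mt-Nd4 (adjusted p = 0.438, 0.256 and 0.518). The small ribosomal RNA mt-Rnr1 had 4669, 3122 and 2765 CPM in low-NaCl libraries and 5295, 3270 and 4654 CPM in high-NaCl libraries, with a log2 difference of -0.32 (adjusted p = 0.548). Single high-NaCl libraries moved these values: without High-NaCl replicate 1 the log2 fold changes were -0.25 for mt-Cytb, -0.24 for mt-Nd2, -0.17 for mt-Nd4 and -0.17 for mt-Rnr1, and without High-NaCl replicate 2 they were -0.78, -0.77, -0.71 and -0.50 in the same order. The mt-Rnr2 identifier held 0.448 to 2.31 CPM on its 55 bases, and its log2 fold change of -0.32 turned to 0.11 without Low-NaCl replicate 3.

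Part of the make-up of the chrM counts also set High-NaCl replicates 1 and 3 apart. The ratio of mt-Nd1 to mt-Co1 counts was 0.303, 0.243 and 0.298 in low-NaCl libraries and 0.456, 0.231 and 0.436 in high-NaCl libraries. For mt-Atp6 to mt-Co1 it was 0.00687, 0.00482 and 0.00608 in low-NaCl libraries and 0.0120, 0.00416 and 0.0110 in high-NaCl libraries. Both ratios were lowest in High-NaCl replicate 2 and next lowest in Low-NaCl replicate 2, the pair in which mt-Co1 took the largest shares of chrM counts, 52.8 and 50.7%. The gap was narrower for mt-Cytb to mt-Co1 (0.521 in High-NaCl replicate 3, 0.479 in Low-NaCl replicate 1) and mt-Nd2 to mt-Co1 (0.265 and 0.244). The mt-Nd4 share of chrM counts did not part them, at 6.97 and 6.56% against 6.94, 5.59 and 7.25% in low-NaCl libraries.

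Per countable kilobase, mt-Co1 stood highest at a mean of 66227 CPM, followed by mt-Cytb (39810), mt-Nd1 (35401), mt-Nd2 (23190), mt-Nd4 (9500), mt-Nd5 (8262), mt-Rnr1 (5060), mt-Atp6 (999), mt-Co2 (758) and mt-Rnr2 (30.2). Each identifier in this order was above the next in 6 of 6 libraries, except mt-Nd4 over mt-Nd5 and mt-Atp6 over mt-Co2, which held in 5 of 6. The 2 low protein-coding entries, mt-Atp6 and mt-Co2, are those with 99.5 and 100% of their windows also in another annotated gene. The 71 nuclear members at least 50% countable had a median of 880 CPM per countable kilobase.

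**Figure D3:**
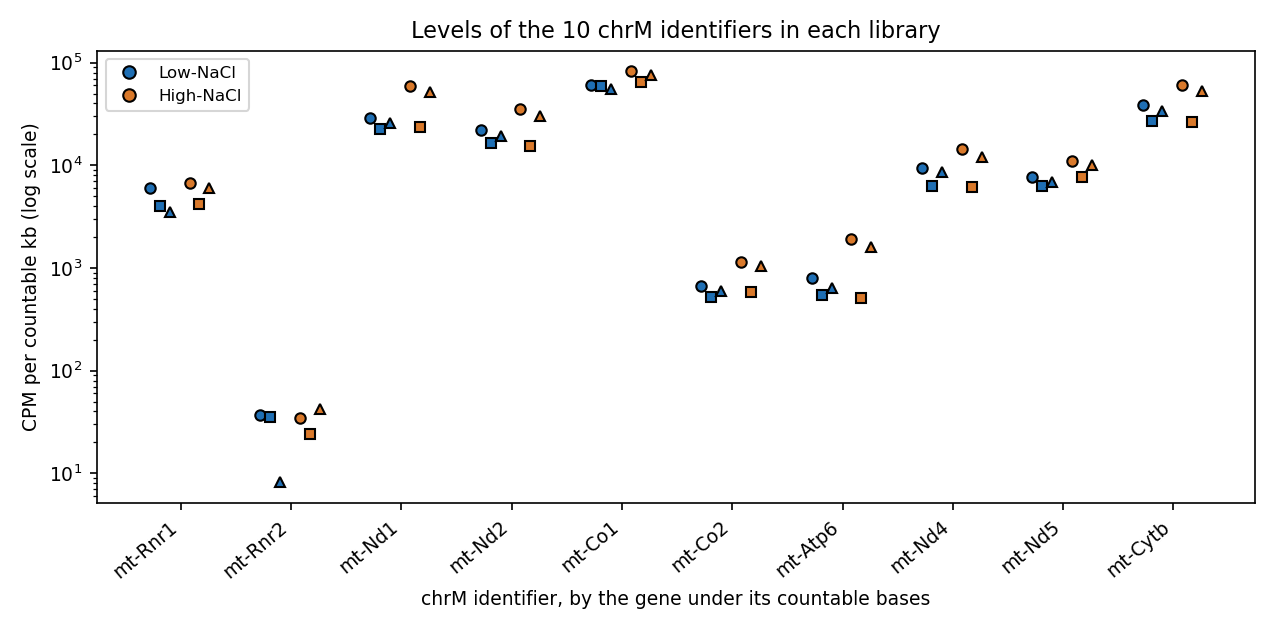
CPM per countable kilobase (log axis) of each chrM identifier, named by the gene under its countable bases and ordered along the chromosome; blue points, left, are low-NaCl libraries and orange points, right, high-NaCl libraries (circle, square, triangle: replicates 1, 2, 3). mt-Co1 is the highest of the 10, and the square of High-NaCl replicate 2 lies among or near the low-NaCl points for mt-Nd1, mt-Atp6 and mt-Co2.

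Among the 81 tested nuclear members, log2 fold changes ran from -0.38 to 0.48 with a median of -0.01; 36 lay above 0 and 45 below. Under total-count scaling the median was 0.09, with 60 above 0, so the direction of the list changed with the scaling; the same scaling put the median of all genes at 0.09. Leaving out 1 library moved the nuclear median between -0.19 (without Low-NaCl replicate 1) and 0.09 (without Low-NaCl replicate 2). Differences were small in size. On the log2 scale, 86.4% of nuclear members (70 of 81) were within 0.25 of 0, against 49.0% of all genes tested. Within 0.5 of 0 were 100% of nuclear members against 75.0% of all genes. The genes compared were not matched for expression level. The SE of members at least 50% countable had a median of 0.196 (range 0.141 to 0.447, n = 65). The groups lay close together, with medians of -0.03 for complex I (34 tested of 38), 0.05 for complex II (4 of 4), 0.03 for complex III (8 of 9), 0.01 for complex IV (12 of 18), -0.03 for complex V (15 of 17) and 0.00 for the assembly factors (8 of 11).

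**Figure D4:**
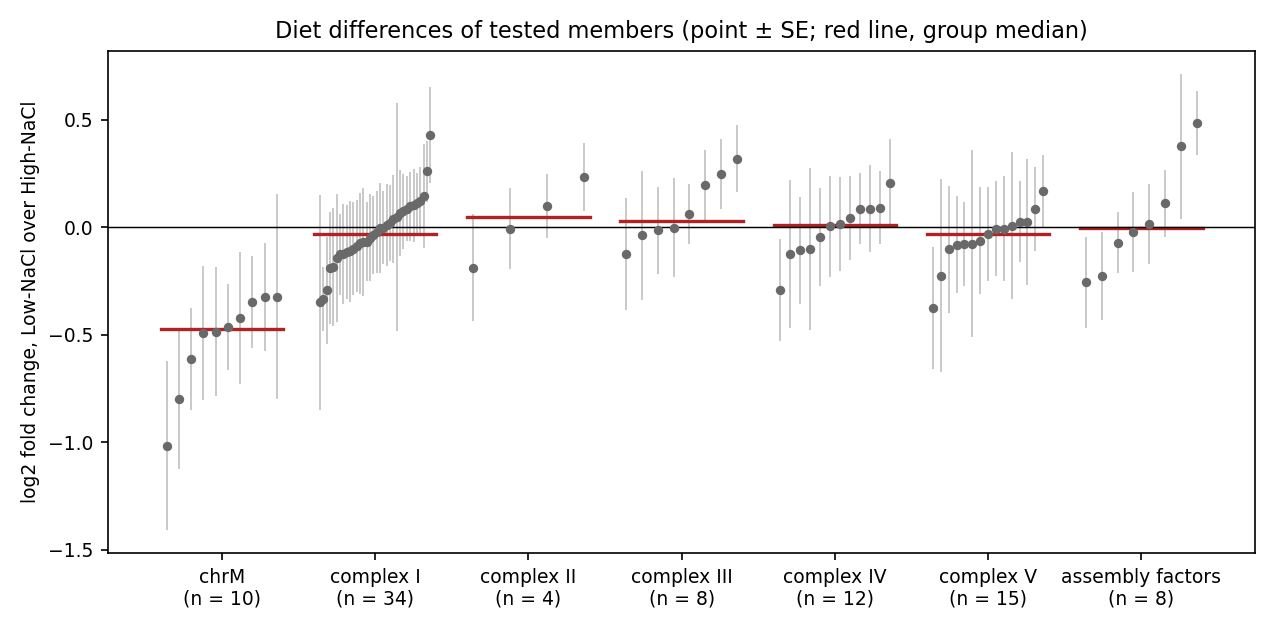
log2 fold change, low-NaCl over high-NaCl, of each tested member by group (points, with SE as whiskers); the red line is the group median. The 10 chrM identifiers lie between -1.01 and -0.32, and the 81 nuclear members between -0.38 and 0.48 around group medians of -0.03 to 0.05.

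Summed by complex, the nuclear members had the same highest and lowest library. Complex I held 23564, 16199 and 17767 CPM in low-NaCl libraries and 22685, 15722 and 20852 CPM in high-NaCl libraries. Complex V held 31901, 24139 and 25607 CPM in low-NaCl libraries and 28437, 22281 and 27503 CPM in high-NaCl libraries. In both, as in complexes II, III and IV, Low-NaCl replicate 1 was the highest and High-NaCl replicate 2 the lowest library, and the diets overlapped. Complex II averaged 5706 ± 630 CPM in low-NaCl and 5619 ± 595 CPM in high-NaCl libraries, complex III 6621 ± 922 CPM in low-NaCl and 6320 ± 864 CPM in high-NaCl libraries, and complex IV 14102 ± 3106 CPM in low-NaCl and 14110 ± 2457 CPM in high-NaCl libraries (SD, n = 3 each).

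These sums leave out much of some subunits. Ndufs1, a core subunit of complex I, was 26.6% countable and stood below 1 CPM in every library; Ndufv2 (6.18% countable) and Ndufs8 (1.91%) were not tested at all. In complex V, Atp5c1, the gamma subunit of the rotor, was 35.3% countable at 0.885 CPM in low-NaCl and 0.880 CPM in high-NaCl libraries, and Atp5d was 1.18% countable. Nuclear members with fewer than 50% countable bases numbered 26 of 97.

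Diets did not overlap for 7 tested nuclear members, all higher in low-NaCl libraries, while 0 were lower; over all genes tested the shares were 12.2% higher and 11.6% lower. The 7 were Ndufaf4, Ndufs4, Sdha, Uqcrb, Uqcrc2, Uqcrfs1 and Atp5a1, with 0 of 7 called. Of these, 6 had a GC content below 50.8%, the median of the 65 tested nuclear members at least 50% countable (range of the 7, 40.2 to 51.9%).

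Ndufaf4, a chaperone that helps assemble complex I, had 58.8, 50.1 and 62.9 CPM in low-NaCl libraries and 42.2, 35.0 and 45.7 CPM in high-NaCl libraries. Every low-NaCl library was above every high-NaCl one. Its log2 fold change of 0.48 ± 0.15 (SE; edgeR adjusted p = 0.117) was the largest of the 81 tested nuclear members, and it crossed the threshold once the GC trend of each library was taken out (0.54, adjusted p = 0.0458), where 2.43% of all genes were called higher. Ndufs4, an accessory subunit of the NADH-oxidising arm of complex I, had 419.9, 383 and 397 CPM in low-NaCl libraries against 297, 351 and 353 CPM in high-NaCl libraries, also without overlap (log2 fold change 0.26 ± 0.14 SE, adjusted p = 0.371).

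Other complex I members with the smallest p pointed both ways. Ndufv3, a subunit of the flavoprotein part, had 148, 113 and 128 CPM in low-NaCl libraries and 164, 148 and 179 CPM in high-NaCl libraries, overlapping by less than 1 CPM (log2 fold change -0.33 ± 0.15 SE, adjusted p = 0.272). Ndufab1, the mitochondrial acyl carrier protein, had 12.5 ± 2.30 CPM in low-NaCl libraries against 9.28 ± 2.34 CPM in high-NaCl libraries (SD, n = 3 each), with 31.7% of its bases countable. The 2 complex I members with the highest levels per countable kilobase, Ndufa4 (3931 CPM, now usually assigned to complex IV) and Ndufb9 (2406 CPM), had log2 fold changes of 0.00 and -0.11.

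The other 7 tested assembly factors overlapped between diets. Sdhaf1, which helps insert the iron-sulfur clusters of complex II, had 65.7 ± 12.1 CPM in low-NaCl libraries and 78.4 ± 21.4 CPM in high-NaCl libraries (SD, n = 3 each; log2 fold change -0.26, edgeR adjusted p = 0.573). Ndufaf8 and Sdhaf4, the other assembly factors with the highest levels, had log2 fold changes of -0.23 and -0.07, and Ndufaf1 (11.8% countable, below 1 CPM) of 0.38 (adjusted p = 0.608). Ndufaf7, an assembly factor of complex I, was removed by the filter on low counts and was 16.4% countable. It summed to 12 counts in low-NaCl libraries and 27 in high-NaCl libraries, a ratio per total count of 0.468 (95% exact interval 0.216 to 0.956, counting error only), and the diets did not overlap.

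All 4 subunits of complex II were tested. Sdha, the flavoprotein that oxidises succinate, had 1706, 1726 and 1675 CPM in low-NaCl libraries and 1277, 1630 and 1431 CPM in high-NaCl libraries. The low-NaCl libraries were nearly equal and all above the high-NaCl ones (log2 fold change 0.24 ± 0.16 SE, edgeR adjusted p = 0.481). Its partner Sdhb, the iron-sulfur subunit, had 2208, 1418 and 1611 CPM in low-NaCl libraries against 2512, 1389 and 2063 CPM in high-NaCl libraries, a log2 fold change of -0.19 with overlapping diets. Without High-NaCl replicate 1, that of Sdhb was 0.01. Sdhc and Sdhd, the membrane anchors, had log2 fold changes of -0.01 and 0.10.

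Of the 7 without overlap, 3 were among the 8 tested members of complex III; the share over all genes tested was 12.2%. Uqcrb, a ubiquinone-binding subunit, had 487, 444 and 485 CPM in low-NaCl libraries and 324, 433 and 377 CPM in high-NaCl libraries (log2 fold change 0.32 ± 0.15 SE, adjusted p = 0.312), with 25.4% of its 50-base windows also in other genes. Uqcrfs1, the Rieske iron-sulfur protein, had 1685, 1325 and 1334 CPM in low-NaCl libraries against 1180, 1190 and 1291 CPM in high-NaCl libraries (0.25, adjusted p = 0.472). Uqcrc2, a core protein, had 1269, 1324 and 1252 CPM in low-NaCl libraries against 941, 1237 and 1175 CPM in high-NaCl libraries (0.20, adjusted p = 0.566). Its companion core protein Uqcrc1, richer in GC, had 2466, 1700 and 1923 CPM in low-NaCl libraries against 2940, 1447 and 2248 CPM in high-NaCl libraries (-0.12, adjusted p = 0.844). High-NaCl replicate 1 was the lowest of the 6 libraries for Uqcrc2 and the highest for Uqcrc1.

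Complex V held the nuclear member with the highest level among those at least 50% countable, Atp5b, at 5791 CPM per countable kilobase. Atp5b, the catalytic beta subunit, had 12987, 10060 and 10564 CPM in low-NaCl libraries and 11476, 9060 and 11142 CPM in high-NaCl libraries, with overlap (log2 fold change 0.09, adjusted p = 0.857). Atp5a1, the alpha subunit, had 7430, 6504 and 6628 CPM in low-NaCl libraries against 5810, 6084 and 6416 CPM in high-NaCl libraries, without overlap (0.17 ± 0.17 SE, adjusted p = 0.655).

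Complex IV had 12 tested nuclear members, and diets overlapped in all 12, where 12.2% of all genes were higher and 11.6% lower without overlap. Cox5a, a subunit of the matrix side, had 1382, 1069 and 1124 CPM in low-NaCl libraries and 1153, 988 and 1215 CPM in high-NaCl libraries (log2 fold change 0.09, edgeR adjusted p = 0.822). Cox7c had 52.4, 32.4 and 32.4 CPM in low-NaCl libraries and 36.2, 28.8 and 36.5 CPM in high-NaCl libraries, with 22.1% of its windows also in other genes. Its value of 0.21 turned to -0.07 without Low-NaCl replicate 1, the highest library for both genes.

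Alternative forms of a subunit that could be read differed more from each other than any tested member did between diets. Of the genes for the c ring of ATP synthase, Atp5g3 stood at 4629 CPM per countable kilobase. Atp5g1 stood at 19.7 but was 15.3% countable, and Atp5g2 at 9.02 with 36.7% of its windows shared with other genes. Neither low value is a firm measure of its gene. Cox7a2, the broadly expressed form, stood at 2039 CPM per countable kilobase and Cox7a1, the heart and muscle form, at 455, a ratio of 5.08, 5.63 and 4.42 in low-NaCl libraries and 3.96, 4.11 and 4.13 in high-NaCl libraries. This ratio was higher in every low-NaCl library, but each of these genes alone overlapped between diets. Their log2 fold changes were 0.01 for Cox7a2 and -0.29 for Cox7a1 (edgeR adjusted p = 0.993 and 0.563). GC content was 47.2% for Cox7a2 and 55.0% for Cox7a1. How often ratios of other gene pairs part the diets was not tested. Cox8a stood at 4964 CPM per countable kilobase, while Cox8b had 2 and Cox8c 5 counts over all 6 libraries. Cox6a1 stood at 4706 and Cox6b1 at 4051 CPM per countable kilobase; the muscle form Cox6a2, 89.5% countable, had 0 counts in every library, where 3 counts would be 0.0640 to 0.0748 CPM before scaling. Cox4i1, the usual form of a subunit that spans complex IV, could be read on 10.7% of its bases only, and its 16.8 CPM per countable kilobase is not a measure of the gene; Cox4i2 had 1 count and Cox7a2l was 6.0% countable.

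Ndufa4l2, a paralogue of Ndufa4 that is raised in hypoxia, had 0, 2 and 1 counts in low-NaCl libraries and 21, 10 and 9 counts in high-NaCl libraries. The diets did not overlap, and the summed counts of 3 against 40 gave a ratio per total count of 0.0790 (95% exact interval 0.0156 to 0.248, counting error only). It was removed by the filter on low counts; without a filter edgeR gave an adjusted p of 0.0331 (log2 fold change -3.66), where 1.66% of all genes were called lower, and DESeq2 gave no adjusted p. Acta2, a marker of smooth muscle, stood at 2.73 to 5.26 CPM in low-NaCl libraries and 2.41 to 5.93 CPM in high-NaCl libraries, and the endothelial marker Emcn, 65.9% countable, was at 0 in all libraries. Another endothelial marker, Kdr, 73.8% countable, had 2, 33 and 1 counts in low-NaCl libraries and 25, 35 and 4 in high-NaCl libraries, with overlap (log2 fold change -0.81, edgeR adjusted p = 0.720). The pericyte marker Pdgfrb was 0.350% countable and cannot be read, and the part of such cells was not tested.

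The position of nuclear members within a library followed GC content, in directions that differed between libraries of the same diet. It fell with GC content in Low-NaCl replicates 2 and 3 and rose in High-NaCl replicates 1 and 3. Low-NaCl replicate 1 and High-NaCl replicate 2 went against the other libraries of their diet. Over the 65 tested members at least 50% countable, the correlation of GC content with the deviation from the member's mean log2 CPM was 0.24, -0.68 and -0.54 in low-NaCl libraries and 0.67, -0.50 and 0.52 in high-NaCl libraries. The points are genes that share each library's preparation, so the values are descriptive. GC-rich members (33) had a median log2 fold change of -0.08 and GC-poor ones (32) of 0.07. Low-NaCl replicate 1 was the highest library for 48 of 81 members and High-NaCl replicate 2 the lowest for 45. With the GC trend taken out, the nuclear median was -0.02 and the chrM median -0.30, with 0 chrM identifiers called. The genes under the chrM identifiers had 35.4 to 39.9% GC, below all 65 of these nuclear members (lowest 40.2%). How well the trend is set at that low end was not tested.

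**Figure D5:**
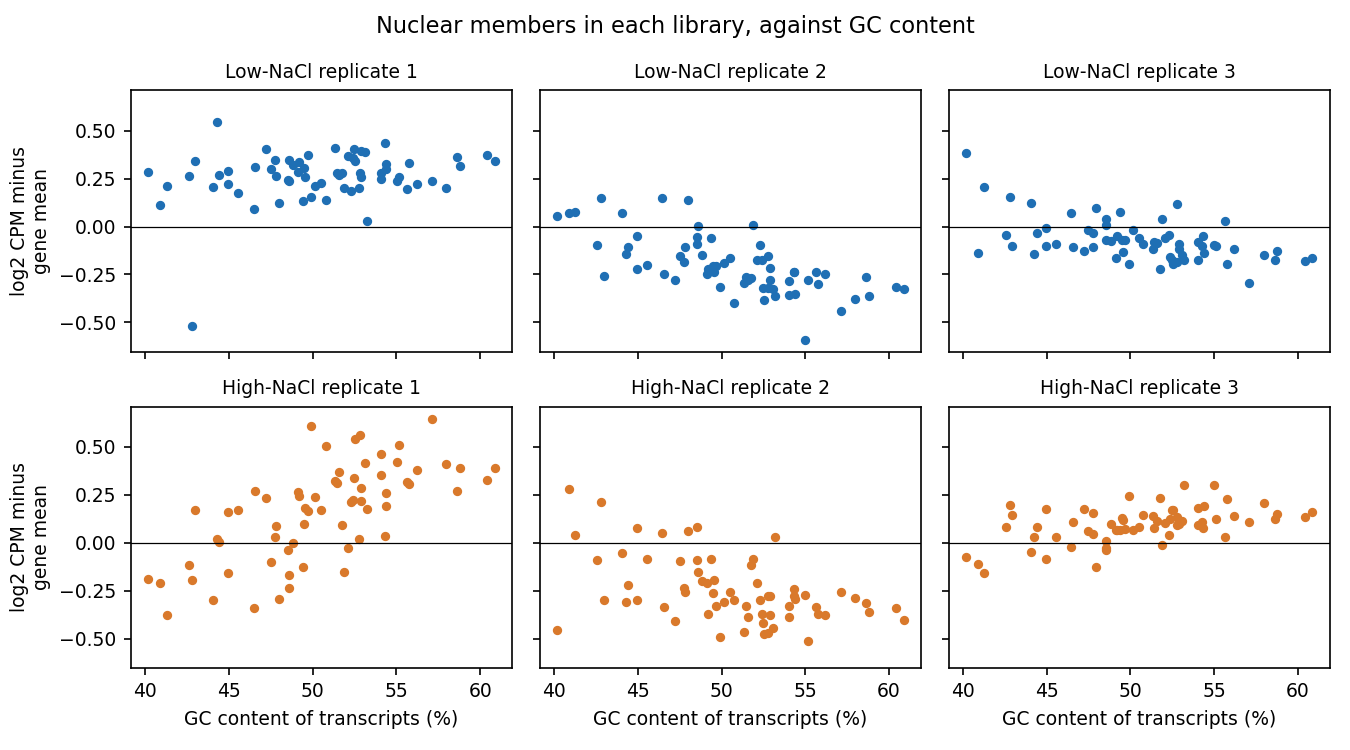
Deviation of log2 CPM from the gene's mean over 6 libraries (vertical axis) against GC content of the gene's transcripts (horizontal axis, %), for 65 nuclear members; low-NaCl libraries in the top row, high-NaCl libraries in the bottom row. The slope is upward in High-NaCl replicates 1 and 3 (correlations 0.67 and 0.52) and in Low-NaCl replicate 1 (0.24). It is downward in Low-NaCl replicates 2 and 3 (-0.68 and -0.54) and in High-NaCl replicate 2 (-0.50).

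Promoters of the nuclear members were searched on both strands for letters bound by known regulators of respiratory genes. The windows were the 250 bases before each RefSeq start (GRCm38.p6). For 77 of the 97 members 82 such windows were found. The NRF1 motif, GCGCA followed by any base and GCGC, was in 18.3% of them, against 3.74% of all 32851 windows. The ETS motif CCGGAAG, read by GABPA, was in 19.5% against 6.91%, and the ERR motif AAGGTCA in 6.10% against 4.08%. The windows compared were not matched for GC content or for expression of their genes, so these shares do not show a trait particular to respiratory chain genes. The upstream 250 bases of Ndufaf4 (chr4:24897833-24898082, plus strand) and Sdha (chr13:74350241-74350490, minus strand) are shown because these members were among the 7 without overlap and hold the NRF1 motif, marked by capitals.

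Ndufaf4: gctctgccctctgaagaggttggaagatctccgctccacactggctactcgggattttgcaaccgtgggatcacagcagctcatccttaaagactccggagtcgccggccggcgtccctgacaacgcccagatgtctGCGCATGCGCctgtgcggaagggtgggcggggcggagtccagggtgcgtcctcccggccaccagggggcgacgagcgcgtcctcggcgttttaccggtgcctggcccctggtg

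Sdha: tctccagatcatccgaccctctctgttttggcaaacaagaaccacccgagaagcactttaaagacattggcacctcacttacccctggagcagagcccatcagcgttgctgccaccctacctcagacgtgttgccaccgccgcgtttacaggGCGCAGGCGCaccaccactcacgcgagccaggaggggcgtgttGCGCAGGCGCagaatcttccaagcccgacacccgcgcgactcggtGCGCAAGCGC

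A match is a run of letters and not a measured binding site. Of the regulators, Esrra, an ERR receptor, had 448 ± 65.9 CPM in low-NaCl libraries and 456 ± 80.9 CPM in high-NaCl libraries (SD, n = 3 each; edgeR adjusted p = 0.959). Ppargc1a and Ppargc1b, coactivators of mitochondrial biogenesis, had 0 counts, but they were only 0.477 and 2.12% countable.

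Other mitochondrial gene lists were read beside the members. Of 20 tested genes of mitochondrial biogenesis and DNA expression, 0 were called, with a median log2 fold change of 0.07. The 2 with the smallest p were Twnk, the mitochondrial DNA helicase, at 13.5, 16.5 and 15.5 CPM in low-NaCl libraries against 8.87, 12.1 and 9.57 CPM in high-NaCl libraries (0.57 ± 0.18 SE, edgeR adjusted p = 0.116), and Tfb1m, which methylates the small mitochondrial ribosomal RNA (0.41, adjusted p = 0.187). In the tricarboxylic acid cycle 0 of 17 were called, with a median of 0.22. Pdhx, a pyruvate dehydrogenase component, had 89.4, 90.5 and 79.7 CPM in low-NaCl libraries against 61.5, 67.4 and 65.0 CPM in high-NaCl libraries, without overlap (0.42 ± 0.12 SE, adjusted p = 0.0975), and for Dlst the log2 fold change was 0.37 (adjusted p = 0.151). Mitochondrial carriers and import (0 of 20 called, median 0.10) were led by the chaperonin Hspd1 (0.41, adjusted p = 0.129) and the import channel Timm23 (0.42, adjusted p = 0.239). Complex IV assembly (0 of 19 called, median 0.14) was led by Taco1, which aids translation of mt-Co1 (0.35, adjusted p = 0.182), and Cox11 (0.24, adjusted p = 0.346). At an unadjusted p below 0.05 these lists had 2 of 20 biogenesis genes, 3 of 17 tricarboxylic acid cycle genes, 2 of 20 carrier and import genes and 1 of 19 complex IV assembly genes, against 18.3% of all genes tested. DESeq2 called 1 gene among them, Twnk.

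Coenzyme Q synthesis had 1 of 11 tested genes called, against 1.70% of all genes called higher, and 4 of 11 at an unadjusted p below 0.05, against 18.3% of all genes. Coq10b, a coenzyme Q binding protein, rose in low-NaCl libraries, with 3.08, 5.10 and 3.94 CPM against 1.65, 2.09 and 1.70 CPM in high-NaCl libraries (log2 fold change 1.15 ± 0.25 SE, edgeR adjusted p = 0.0394). Only 8.66% of its bases were countable. Its paralogue Coq10a, 100% countable, lay the other way without overlap, at 64.1, 54.3 and 60.6 CPM in low-NaCl libraries against 102.6, 65.7 and 89.6 CPM in high-NaCl libraries, but was not called (log2 fold change -0.53, edgeR adjusted p = 0.136). The call of Coq10b ended with total-count scaling (adjusted p = 0.0869), limma-voom (0.0541), and without Low-NaCl replicates 2 or 3 (0.184 and 0.110) or High-NaCl replicates 1 or 3 (0.111 and 0.143). With lane as a term only replicate 1 of each diet informs the difference, so no p is given for that fit. Uncoupling had 0 of 3 called, 0 by DESeq2 and 0 at an unadjusted p below 0.05, with Ucp2, a proton carrier, at 629, 513 and 706 CPM in low-NaCl libraries against 1090.2, 615 and 677 CPM in high-NaCl libraries (-0.37, adjusted p = 0.449) and Slc25a27 at -0.39 (adjusted p = 0.659).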

How the data were processed

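Each library has 1 file of raw whole-number counts as deposited by the authors. Per the file headers, these were made with featureCounts 1.5.0-p3 over exons of 59121 UCSC mm10 transcript identifiers, with no option for strand or overlap, so strand was ignored and reads on several identifiers were dropped. FastQC, Subread and edgeR appear in the submitters' processing notes. The aligner, and how it treated reads with several matches, is not given in the sources used here. Depth was 40101899 to 46861531 counts per library; intervals and the floor of 3 counts cover counting error only.

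Identifiers were matched to GENCODE M21 genes by at least 50% of exonic bases on the same strand, and summed. The gene with the largest overlap was taken, with identical introns used only to break ties. No match was found for 6690 identifiers, 0.362% of counts. Each chrM identifier was kept as its own row. edgeR 4.0.16 in R 4.3.3 (limma 3.58.1) used TMM factors, filterByExpr, glmQLFit with robust estimation and glmQLFTest without covariates, with Benjamini-Hochberg adjustment over 10523 genes and a threshold of 0.05; the procedure was tested on simulated data. SE values were computed as the size of the log2 fold change over the square root of F. Countable bases are exonic bases in 1 identifier only, and shared windows are 50-mers also found in transcripts of another gene. GC content had a value for 10519 of the 10523 tested genes; its trend was taken out per library with lowess (span 0.3).

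No pair of replicates was a duplicate (chi-square over degrees of freedom, 36.7 to 253). Lanes were read from the file headers. Alternatives were other scalings and filters, DESeq2 1.42.0, limma-voom, a replicate block, lane as a term, other matching, and leaving out each library. The GC trend, the chromosome 1 copy added to chrM and mt-Co1 left out were added after the data were seen. Named were all chrM identifiers, alternative forms of subunits and any called member. Per complex, the 3 nuclear members with the smallest p and the 2 with the highest level per countable kilobase were named. Per list, the called genes or the 2 with the smallest p were named. Not all of these are given with values. Also named, after their values were seen, are members whose diets did not overlap, Atp5b, Coq10a, Kdr, Aqp1, Kap, Klk1, Emcn, Gata3, Esrra, Ppargc1a and Ppargc1b. The members and lists were chosen with earlier results of these data known.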

Additional observations from a re-analysis of the deposited data

How the results depend on the processing

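Genes called, over all tested (179 higher, 178 lower), moved to 80 and 55 under total-count scaling, 392 and 416 in DESeq2, and 274 lower without a filter. With lane as a term, the diet difference rests on Low-NaCl replicate 1 against High-NaCl replicate 1 alone. Calls from that fit are therefore not given. Leaving out 1 library gave 32 to 290 higher and 36 to 252 lower. Nuclear members called higher were 0 and became 1, Ndufaf4, with the GC trend taken out; called lower were 0 and became 1, Ndufa4l2, without a filter; both stayed at 0 without any 1 library. chrM identifiers called lower were 0 and became 1 (mt-Atp6) with DESeq2; leaving out 1 library gave 0 to 3, the 3 without High-NaCl replicate 2. None was called higher under any setting run. On the log2 scale, the low-NaCl minus high-NaCl difference was -0.33 for the chrM share (-0.48 to -0.25 leaving out 1 library), -0.45 for the chrM to nuclear ratio (-0.74 within the shared lane, -0.56 to -0.36 leaving out 1 library) and 0.11 for the summed nuclear share (0.28 within the shared lane, 0.02 to 0.17 leaving out 1 library).

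The labels do not say whether replicate numbers pair the libraries. Deviations of same-numbered libraries correlated at 0.17, 0.24 and -0.08. Low-NaCl replicates 1 and 2 each correlated best with the same-numbered high-NaCl library, while Low-NaCl replicate 3 correlated best with High-NaCl replicate 2 (0.10). With the replicate block, 457 genes were called higher and 436 lower, and with the block and the GC trend taken out 416 and 366. The block called 1 nuclear member higher, Ndufaf4 (adjusted p = 0.0171; 0.0143 and again 1 with the GC trend), and 1 chrM identifier lower, mt-Co2 (0.0436).

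Of 770 alternative values of 39 named genes, 740 kept direction and side of the threshold. With lane as a term, which sets Low-NaCl replicate 1 against High-NaCl replicate 1 alone, mt-Rnr2 turned to 0.10 and Slc25a27 to 0.35. Leaving out 1 library turned mt-Rnr2 (-0.62 to 0.11), Sdhb (-0.40 to 0.013), Cox7c (-0.069 to 0.33), Cox5a (-0.035 to 0.16) and Atp5f1 (-0.43 to 0.10). The cause was not tested. Core subunits alone cannot change the chrM share, and scaling or counts outside chrM cannot change the ratio, so these were not run. Depth limits members that are little countable, whatever the library total.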
